A study of Rattus norvegicus with 12 samples.

Results

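The RNA of 10 genes was followed through 12 poly(A) libraries of PAC1, a smooth muscle line from the rat pulmonary artery. The genes encode serum response factor (Srf), the coactivators myocardin (Myocd) and the myocardin-related factors Mrtfa and Mrtfb, the MADS-box factors Mef2c and Mef2d, the ternary complex factor Elk1, the forkhead factor Foxo4, and the Kruppel-like factors Klf4 and Klf5. They were chosen by name, and all 10 are among the 33294 genes of the count table. The libraries fall into 4 groups of 3. PAC1-D cells, grown to favour the differentiated state, received control siRNA (D1), siRNA against Rbpms (RBPMS KD1) or siRNAs against Mbnl1 and Mbnl2 together (MBNL KD), and PAC1-P cells, grown to favour the proliferative state, received control siRNA (P). RBPMS and the MBNL proteins are RNA-binding splicing regulators. All cells are of a single established line, all were transfected in 2 rounds with 90 pmol of siRNA per the labels, and no group lacked siRNA. The labels name the MBNL KD libraries after MBNL1 only, while their treatment field names MBNL1 and MBNL2.

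In smooth muscle, SRF binds a short DNA element named the CArG box in the promoters of contractile, cytoskeletal and immediate early genes, and its choice of partner sets which of these it drives. Myocardin and the MRTFs are coactivators that favour the muscle and cytoskeletal genes, and actin polymerisation frees the MRTFs to enter the nucleus. ELK1 is a ternary complex factor that competes with myocardin for SRF after growth signals, and KLF4, KLF5 and FOXO4 are known as modulators of smooth muscle gene expression. MEF2 factors are relatives of SRF that act with class IIa histone deacetylases, and MEF2C can drive transcription of the Myocd gene.

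Of the 8 genes whose promoter is in the RefSeq table used here (GRCr8), only Srf held a CArG box, the element that SRF itself binds, and it held 2 of them in the 300 bases around its start site. The box was searched in its strict form only, CC and GG around a run of fixed length of A and T. That form reads alike on both strands. The search covered 250 bases before and 50 after each start, and 548 of 33469 promoters held it (1.64%). Looser forms of the element and more distant boxes were not searched. In Srf the first bases of the boxes lie 81 and 61 bases before the start site of that table, on the plus strand of chromosome 9. The stretch below is chr9:21923956-21924075, with the boxes in capitals. It is shown because it is the place in these genes where the family's own DNA element could be read.
Srf: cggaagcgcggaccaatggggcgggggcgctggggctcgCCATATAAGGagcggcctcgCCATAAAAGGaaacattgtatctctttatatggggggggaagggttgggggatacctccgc

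Beside it, the same table held boxes in 3 of 14 promoters of cytoskeletal MRTF-SRF targets, shown here as 30-base windows on the strand of each gene. Actg1 (cytoplasmic gamma actin) has its window at chr10:106121022-106121051 on the minus strand, Fhl2 (a LIM-domain cofactor of SRF) at chr9:52954616-52954645 on the minus strand, and Cnn2 (calponin 2) at chr7:10370364-10370393 on the minus strand. A match is a description of these letters and not a site shown to be bound.
Actg1: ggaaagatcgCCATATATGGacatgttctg
Fhl2: catttagagaCCAAAAATGGcttgcaggag
Cnn2: cgcttccacgCCTTATAAGGgcatttgccc
Of the other lists described further on, the box was found in 1 of 14 promoters of contractile SRF targets, 2 of 7 of immediate early targets, 1 of 16 of the family's paralogs and 0 of 16 of upstream regulators.

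Total counts per library ranged from 80842635 to 90771289. MBNL KD replicate 3 had the lowest total and stood apart from its group, with a chi-square per degree of freedom of 12.8 against each of the other two, where the other pairs within a group lay between 3.68 and 7.7. The siRNA targets were lower as labelled. Rbpms was at 24.7% to 25.5% of the D1 mean in the RBPMS KD1 libraries, and Mbnl1 was at 23.6% to 24.1% and Mbnl2 at 29.1% to 30.1% in MBNL KD. All 7 smooth muscle markers (Acta2, Tagln, Myh11, Cnn1, Smtn, Mylk and Lmod1) were counted in every group. Their summed level was 8999 to 9465 CPM (counts scaled to 1e6 per library) in D1, 184 to 195 in P, 4455 to 4626 in RBPMS KD1 and 7216 to 7333 in MBNL KD. In D1 this sum is mostly Acta2 and Tagln, at 5034 and 3244 CPM. In MBNL KD Myh11 was at 145% and Cnn1 at 108% of the D1 mean. Acta2, Tagln, Smtn, Mylk and Lmod1 lay at 62.8% to 84.2% there. The 5 endothelial markers summed to 0.746 to 0.816 CPM in D1, 5.43 to 6.76 in P, 1.82 to 1.84 in RBPMS KD1 and 0.937 to 1.42 in MBNL KD, with 2, 3, 3 and 3 of them above 3 counts, and Cdh5 was at 0 in D1 and both knockdowns and at 122 to 138 counts in P. Leukocyte markers summed to at most 1.49 CPM (2 of 4 above 3 counts in each group). Striated muscle markers summed to 0.780 to 1.22 CPM in D1, 1.22 to 1.31 in P, 0.205 to 0.418 in RBPMS KD1 and 1.21 to 1.26 in MBNL KD (1, 1, 1 and 3 of 5 above 3 counts), with Myod1 at 0 in D1 and 44 to 64 counts in MBNL KD, while Ckm, most of the sum in D1, was at 34.3% of the D1 mean in MBNL KD and 27.4% in RBPMS KD1. The 3 fibroblast markers summed to 145 to 156 CPM in D1, 187 to 196 in P, 128 to 135 in RBPMS KD1 and 91.7 to 98.1 in MBNL KD. These sums are mostly Lum, and in RBPMS KD1 Pdgfra and Dcn were at 188% and 163% of the D1 mean where Lum was at 76.8%, while in P Pdgfra was at 82.0%. In MBNL KD Pdgfra was at 116%, Dcn at 42.3% and Lum at 63.6%. The epithelial sums of 35.5 to 37.2, 80.1 to 83.2, 38.8 to 41.3 and 53.5 to 54.5 CPM are nearly all Krt8, and Epcam and Cdh1 were at 0 in D1 and RBPMS KD1, at 0 to 1 counts in MBNL KD and at 6 to 12 counts in P. The part of these differences in the results below was not tested. In such bulk libraries, fewer cells of a type and less RNA per cell cannot be told apart.

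In PAC1-P cells 9 of the 10 factors differed from D1 at an adjusted p under 0.05, 8 lower and 1 higher, where 77.9% of all 16814 genes tested did so (37.6% lower and 40.4% higher). By far the strongest fall was that of Myocd, 31.3-fold, and Srf and Mef2c were 2.34-fold and 1.66-fold lower. Klf5 was the single factor that rose. With the further threshold of a log2 fold change beyond 1, 3 of 10 were called (Myocd and Srf lower, Klf5 higher), where 27.6% of all genes were called (11.2% lower and 16.4% higher). Of those calls 59.4% were higher, and 45.6% with quantile normalization.

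In RBPMS KD1, 8 of the 9 factors tested passed the adjusted p, 5 lower and 3 higher, where 59.1% of 15904 genes did so (29.5% lower and 29.5% higher). Myocd, Mef2c, Srf, Foxo4 and Mrtfa fell, and Klf4, Mrtfb and Mef2d rose. None of the 9 was called at both thresholds, as 4.68% of all genes were (1.62% lower and 3.06% higher). That share rests on 745 genes, of which 65.4% were higher, against 704 genes with 54.0% higher under quantile normalization and 209 genes by limma on the authors' normalised values.

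In MBNL KD, 8 of 9 passed the adjusted p, 7 lower and 1 higher, where 67.5% of 16053 genes did so (33.7% lower and 33.8% higher). Elk1, Myocd and Mrtfb had the largest falls and Srf alone rose. Without MBNL KD replicate 3, each of the 9 kept its direction and its side of the threshold in both comparisons of MBNL KD. Again none of the 9 was called at both thresholds, with 10.2% of all genes called (4.14% lower and 6.1% higher), which is 1643 genes against 784 by limma on the normalised values. Set against each other directly, the knockdowns differed for 8 of the 9 factors, with 69.5% of 16111 genes past the adjusted p (34.5% lower and 35.1% higher in MBNL KD). For none of the 9 was that so at both thresholds, with 11.9% of genes called (6.03% lower and 5.88% higher), or 1920 against 1050 by limma on the normalised values. MBNL KD was the higher for Myocd, Srf, Mef2c and Foxo4 and RBPMS KD1 for Mrtfb, Mef2d, Elk1 and Klf4. All tests were the quasi-likelihood test of edgeR, with p-values adjusted after Benjamini and Hochberg over all genes tested in a comparison, and they measure the spread between the 3 libraries of a group. The comparisons with D1 share its 3 libraries, so their values stand side by side below as separate descriptions.

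**Figure D1:**
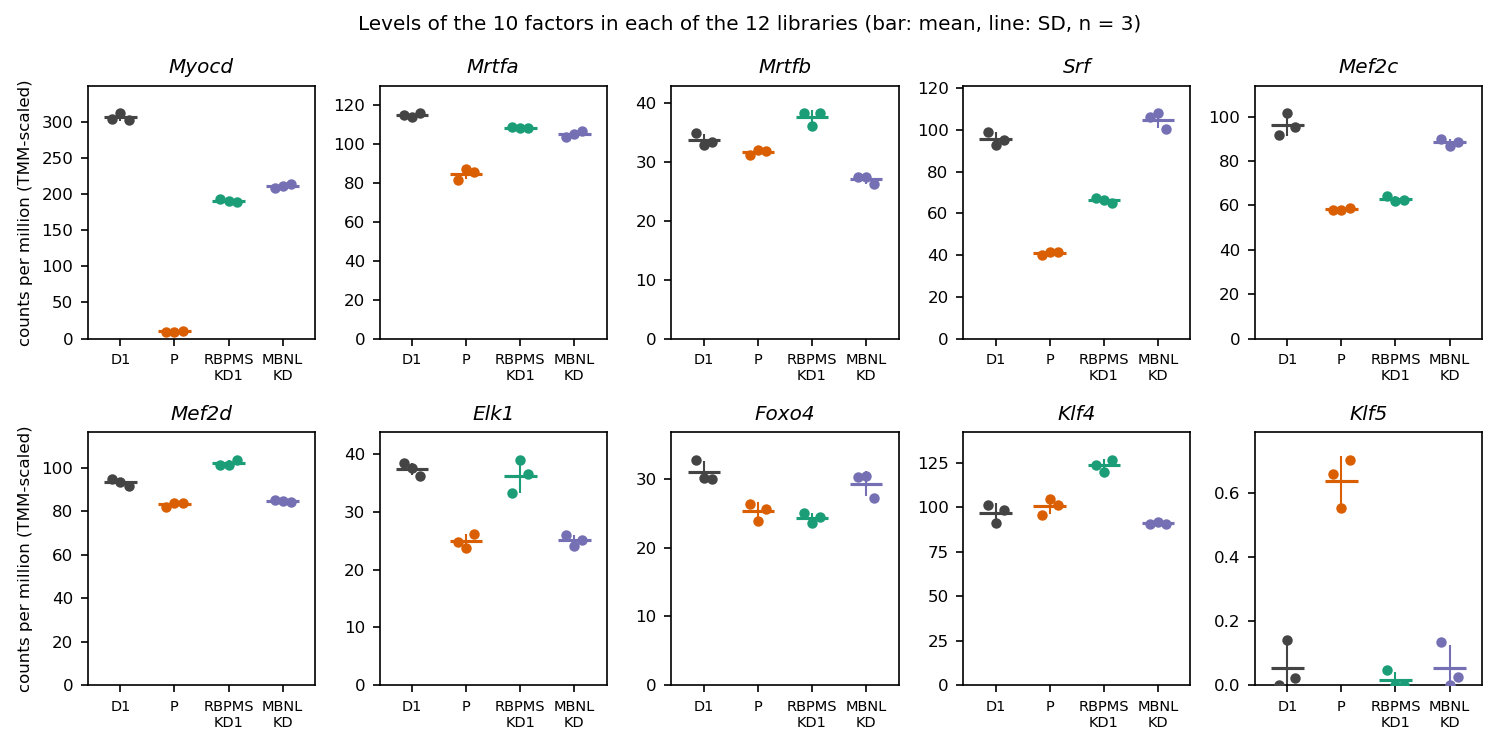
Level of each of the 10 factors in the 12 libraries, in CPM after TMM scaling (y axis from 0, with its own range in each panel), by group; points are libraries, bars the mean and lines the SD of 3. Myocd lies at 9.18 to 10.6 in P and at 303 to 312 in D1, while the Klf4 libraries of P and D1 overlap.

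Myocardin is the coactivator most restricted to cardiac and smooth muscle. Its level was 304, 312 and 303 CPM in D1 replicates 1 to 3 and 9.18, 9.61 and 10.6 CPM in P. It was 193, 190.0 and 189 CPM in RBPMS KD1 and 209, 211 and 214 CPM in MBNL KD. The libraries of the 4 groups did not overlap, in the order D1, MBNL KD, RBPMS KD1 and P. The log2 fold change against D1 was -4.97 in P (standard error 0.037, adjusted p = 5.4e-42, edgeR), and 4.29% of all genes had a larger change in either direction. Against D1 it was -0.68 in RBPMS KD1 (standard error 0.025, adjusted p = 3.1e-19, edgeR) and -0.53 in MBNL KD (standard error 0.025, adjusted p = 1.3e-17, edgeR). MBNL KD was 0.14 above RBPMS KD1 on the log2 scale (standard error 0.026, adjusted p = 1.2e-05, edgeR). Even in P, Myocd was read at 864 to 995 counts per library, well above the limit of 3 counts. A noncoding gene, LOC120095121, overlaps Myocd in the RefSeq table and had at most 25 counts in any library.

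Mrtfa, a coactivator held by monomeric actin in the cytoplasm, varied over a much narrower range. Its D1 libraries held 115, 114 and 116 CPM and its P libraries 81.4, 86.9 and 85.7 CPM. RBPMS KD1 libraries held 109, 108 and 108 CPM and MBNL KD libraries 103, 105 and 106 CPM. P stood clear below the others, and D1, RBPMS KD1 and MBNL KD followed each other closely without overlap. The log2 fold change was -0.45 in P (standard error 0.028, adjusted p = 1.1e-15, edgeR) and -0.13 in MBNL KD (adjusted p = 1.9e-05), where quantile normalization gave -0.06 (adjusted p = 0.034) and limma on the authors' normalised values -0.06 (0.029). In RBPMS KD1 it was -0.08 (adjusted p = 0.0071), and it no longer passed with quantile normalization (-0.04, adjusted p = 0.22) or with limma on the normalised values (-0.04, 0.077). The knockdowns differed by -0.05 (MBNL KD minus RBPMS KD1, adjusted p = 0.082), and without RBPMS KD1 replicate 2 or 3 that difference passed, at an adjusted p of 0.048 or 0.032. Over all 14 alternatives the difference ranged from -0.07 to -0.02, and only those 2 passed.

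Mrtfb, the second actin-regulated coactivator, moved in opposite directions in the knockdowns. It was at 34.9, 33.0 and 33.4 CPM in D1 and at 31.2, 32.05 and 31.8 CPM in P. The RBPMS KD1 libraries held 38.3, 36.1 and 38.3 CPM, all above D1, and the MBNL KD libraries 27.5, 27.4 and 26.2 CPM, all below both D1 and P. Its log2 fold change was 0.16 in RBPMS KD1 (standard error 0.039, adjusted p = 0.001, edgeR) and -0.32 in MBNL KD (standard error 0.040, adjusted p = 3.6e-08, edgeR). MBNL KD lay 0.48 below RBPMS KD1 on the log2 scale, where the difference itself had an adjusted p of 6.5e-12. In P it was -0.10 (adjusted p = 0.024). That last difference did not pass with quantile normalization (adjusted p = 0.094), with limma on the normalised values (0.076), without P replicate 1 (0.085) and without D1 replicate 1 (0.1).

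Srf encodes the DNA-binding partner of all these coactivators, and its own gene is a known SRF target. Its levels were 99.1, 92.7 and 95.2 CPM in D1 and 40.1, 41.5 and 41.6 CPM in P. In RBPMS KD1 they were 67.6, 66.2 and 64.9 CPM and in MBNL KD 106, 108 and 100.5 CPM. No group overlapped another, and MBNL KD lay above D1 while RBPMS KD1 lay between D1 and P. The log2 fold change was -1.22 in P (standard error 0.032, adjusted p = 1e-26, edgeR), -0.53 in RBPMS KD1 (standard error 0.031, adjusted p = 1.2e-14, edgeR) and 0.14 in MBNL KD (standard error 0.029, adjusted p = 0.00013, edgeR). Between the knockdowns Srf had the largest difference of the 9 factors tested, 0.66 higher in MBNL KD (standard error 0.030, adjusted p = 2.9e-18, edgeR). Its lowest MBNL KD level was in replicate 3, the library that stood apart, and without that library the rise over D1 was 0.17 (adjusted p = 3.8e-05). With quantile normalization and with limma on the normalised values it was 0.22.

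Mef2c, a MADS-box factor of muscle and vascular development, was lower in P and in RBPMS KD1. D1 libraries held 92.0, 102 and 95.4 CPM, P libraries 57.8, 58.0 and 58.9 CPM, RBPMS KD1 libraries 64.5, 61.9 and 62.5 CPM, and MBNL KD libraries 89.9, 86.9 and 88.5 CPM. The MBNL KD libraries were just under the lowest D1 library, whereas those of RBPMS KD1 and P were far under it and apart from each other. The log2 fold change was -0.73 in P (standard error 0.032, adjusted p = 3.4e-20, edgeR) and -0.61 in RBPMS KD1 (standard error 0.033, adjusted p = 2.6e-15, edgeR). In MBNL KD it was -0.12 (adjusted p = 0.00058), which did not pass with quantile normalization (-0.04, adjusted p = 0.25) or with limma on the normalised values (-0.04, 0.41). MBNL KD was 0.49 above RBPMS KD1 on the log2 scale (adjusted p = 2.6e-15).

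Mef2d, its more widely expressed relative, was highest in RBPMS KD1. It had 94.8, 93.5 and 91.7 CPM in D1, 81.9, 83.6 and 83.7 CPM in P, 101, 101 and 104 CPM in RBPMS KD1, and 85.2, 84.9 and 84.2 CPM in MBNL KD. All 4 groups were separate, although P and MBNL KD were close. The changes were small against D1: -0.17 on the log2 scale in P (adjusted p = 1.2e-06, edgeR), 0.13 in RBPMS KD1 (adjusted p = 0.00015) and -0.14 in MBNL KD (adjusted p = 2.2e-05). The last was -0.06 with quantile normalization (adjusted p = 0.036) and -0.05 with limma on the normalised values (0.03). Mef2d was thus higher where Mef2c was lower in RBPMS KD1, and the knockdowns differed for Mef2d by -0.27 (MBNL KD minus RBPMS KD1, adjusted p = 1.5e-10).

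Elk1, the ternary complex factor, separated the groups into pairs. Its levels were 38.5, 37.7 and 36.3 CPM in D1 and 33.2, 39.1 and 36.5 CPM in RBPMS KD1, which overlapped. They were 24.8, 23.8 and 26.2 CPM in P and 25.9, 24.2 and 25.2 CPM in MBNL KD, which overlapped in turn and lay below every D1 library. The log2 fold change was -0.59 in P (standard error 0.041, adjusted p = 9.5e-15, edgeR) and -0.58 in MBNL KD (standard error 0.040, adjusted p = 1.3e-13, edgeR). In RBPMS KD1 it was -0.05 (standard error 0.045, adjusted p = 0.4), and the lowest library of that group, replicate 1, fixed its sign. The knockdowns differed by -0.54 (MBNL KD minus RBPMS KD1, standard error 0.048, adjusted p = 3e-11, edgeR). Elk1 was the factor with the widest spread within RBPMS KD1 apart from Klf5, at a coefficient of variation of 8.13%.

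Foxo4, a forkhead factor known to bind myocardin and restrain it, showed other pairs. D1 libraries held 32.9, 30.2 and 30.0 CPM and MBNL KD libraries 30.4, 30.4 and 27.3 CPM, with overlap. P libraries held 26.4, 23.9 and 25.7 CPM and RBPMS KD1 libraries 25.1, 23.7 and 24.4 CPM, again with overlap and below every library of the first pair. The log2 fold change was -0.30 in P (standard error 0.045, adjusted p = 3.9e-07, edgeR) and -0.34 in RBPMS KD1 (standard error 0.044, adjusted p = 1.1e-07, edgeR). In MBNL KD it was -0.08 (adjusted p = 0.14), and the lowest library was replicate 3, without which it was -0.03 (adjusted p = 0.62). MBNL KD was 0.26 above RBPMS KD1 on the log2 scale (adjusted p = 9.4e-06).

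Klf4, a factor known to repress smooth muscle genes, did not pass the test in P. It was at 101, 90.9 and 98.4 CPM in D1, 95.6, 104 and 101 CPM in P, 124, 120 and 127 CPM in RBPMS KD1, and 90.8, 91.8 and 90.4 CPM in MBNL KD. RBPMS KD1 was above all other libraries, and D1 overlapped both P and MBNL KD. The log2 fold change was 0.35 in RBPMS KD1 (standard error 0.033, adjusted p = 2.8e-10, edgeR). In P it was 0.05 (standard error 0.034, adjusted p = 0.22), with an adjusted p of 0.038 under quantile normalization and -0.0016 as the log2 value without D1 replicate 2. In MBNL KD it was -0.09 (adjusted p = 0.011) despite the overlap, which did not pass without D1 replicate 1 (adjusted p = 0.084), and was -0.14 without D1 replicate 2 (adjusted p = 2.6e-05). Its value was 0.0018 with quantile normalization and 0.0013 with limma on the normalised values. MBNL KD lay 0.44 below RBPMS KD1 on the log2 scale (adjusted p = 2.9e-15). A gene that overlaps Klf4 in the RefSeq table, LOC120103069, had at most 6 counts.

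Klf5, a growth-associated relative of Klf4, was near the limit of counting outside P. It had 62, 52 and 66 counts in P, against 0, 12 and 2 in D1, 4, 0 and 0 in RBPMS KD1, and 12, 0 and 2 in MBNL KD. Each P library was above every other library, and the other groups overlapped. As levels, P held 0.555 to 0.705 CPM, where 3 counts correspond to 0.0319 to 0.0370 CPM over the 12 libraries. The fitted log2 fold change in P was 3.53 (standard error 0.49, adjusted p = 8.9e-08, edgeR). Its size rested on D1 replicate 2, without which it was 5.63, and on the values used, since limma on the log2 of the authors' normalised values gave 1.03. In those values 0 counts stand as 35 (D1 replicate 1) and 62 counts as 84.3 (P replicate 1), which narrows the fold. Klf5 was left out by the filter on low counts in the 3 comparisons between PAC1-D groups, so no change was testable there at this depth. All 12 of its counts were even, and how read mates were counted is not given in the sources used here.

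**Figure D2:**
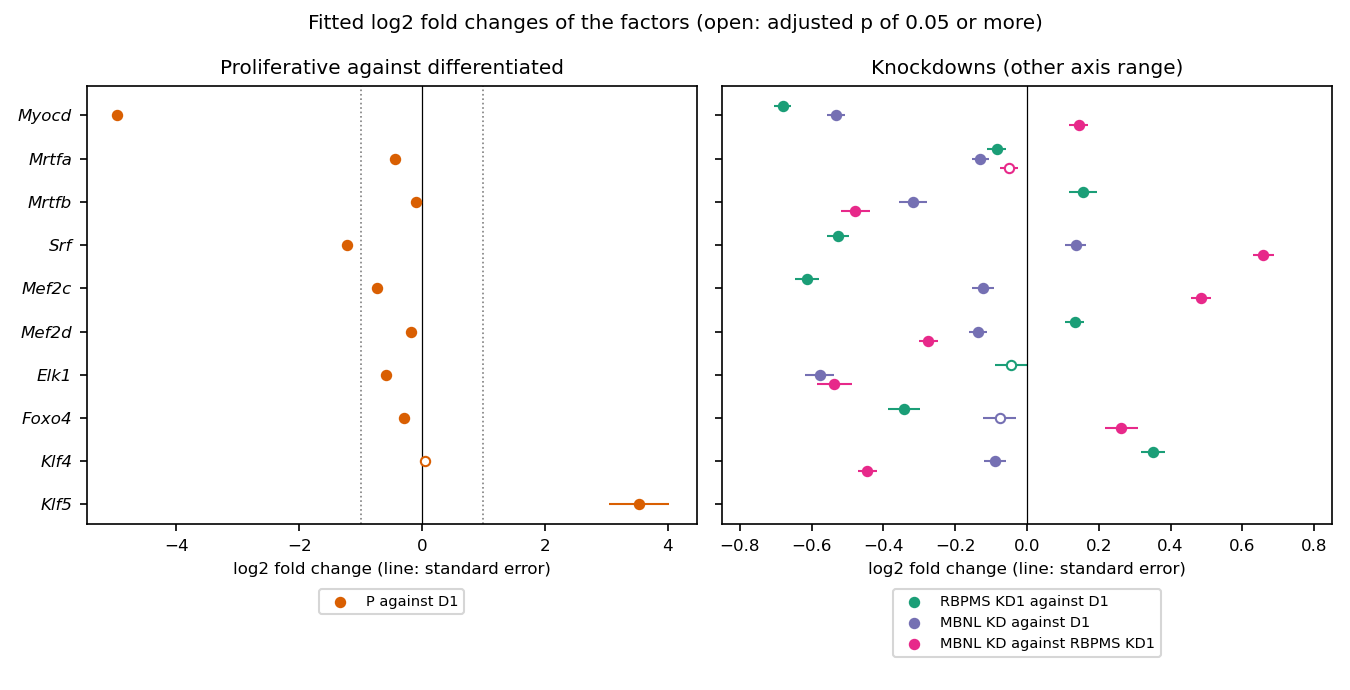
Fitted log2 fold change (x axis) of each factor (y axis), with its standard error as a line, for P against D1 on the left and for the 3 comparisons of knockdowns on the right, on another axis range; open points have an adjusted p of 0.05 or more, and dotted lines mark log2 values of -1 and 1. Myocd at -4.97 and Klf5 at 3.53 lie far outside the other factors in P, and Srf lies on opposite sides of 0 in the knockdowns.

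Since each factor was counted over the same transcript model in every library, a pair's ratio could be compared between groups without gene lengths. This holds only where isoform lengths do not differ between groups. Isoforms were not analysed, and both knockdowns target splicing regulators. On the log2 scale, 7 such ratios within a library were computed relative to the D1 mean. The pairs were chosen with these values known, so they are descriptions with no test. Myocd relative to Mrtfa was -4.53 ± 0.089 in P, -0.60 ± 0.011 in RBPMS KD1 and -0.40 ± 0.0022 in MBNL KD (SD, n = 3), with D1 libraries within -0.03 and 0.04. In P and in both knockdowns Myocd thus made up less of the pair than in D1. Relative to Srf, Myocd was -3.75 ± 0.086 in P and only -0.15 ± 0.017 in RBPMS KD1, where both mRNAs were lower, but -0.67 ± 0.070 in MBNL KD, where Srf was higher.

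Against Elk1, Srf was lower in P, at -0.63 ± 0.071, and in RBPMS KD1, at -0.48 ± 0.14, and higher in MBNL KD, at 0.71 ± 0.087 (SD, n = 3). Against Klf4, it was -1.27 ± 0.040 in P, -0.88 ± 0.060 in RBPMS KD1 and 0.22 ± 0.046 in MBNL KD. MBNL KD was thus the group in which the Srf mRNA was higher relative to both. On the log2 scale Srf itself was 0.14 above D1 there, with Elk1 at -0.58 and Klf4 at -0.09. Mef2c relative to Mef2d was -0.56 ± 0.013 in P and -0.74 ± 0.041 in RBPMS KD1, with all libraries below D1, and 0.02 ± 0.024 in MBNL KD, within the D1 range of -0.09 to 0.08. Myocd relative to Klf4 was -5.02 in P, -1.03 in RBPMS KD1 and -0.45 in MBNL KD, and relative to Mrtfb it was -4.88, -0.84 and -0.21.

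**Figure D3:**
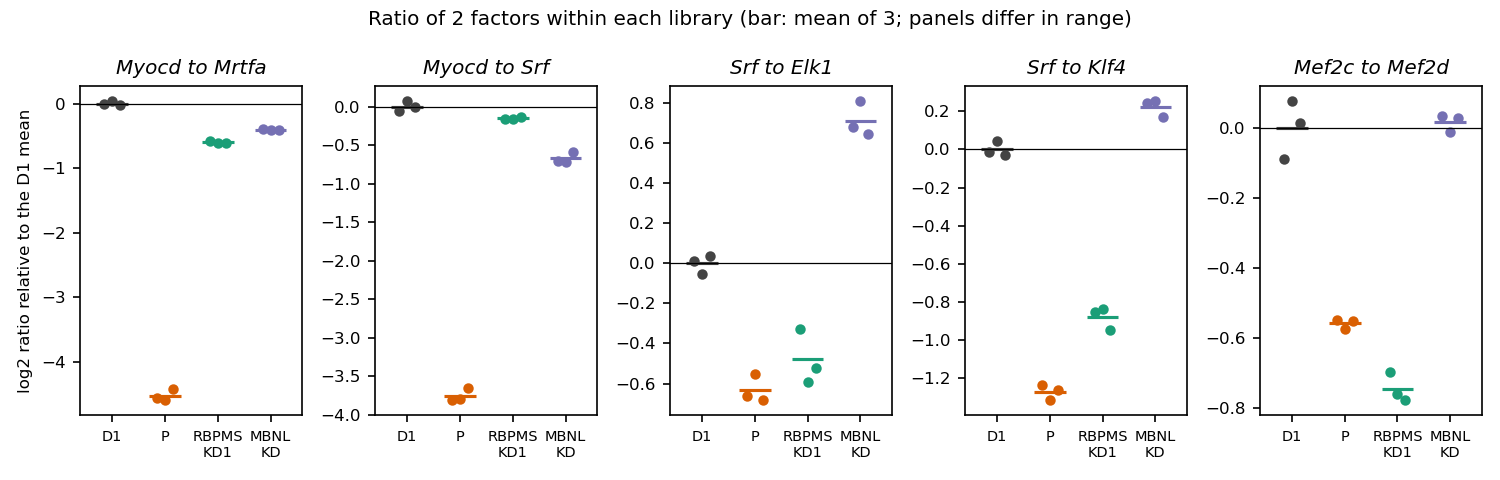
Log2 ratio of a pair of factors within each library, relative to the D1 mean (y axis, with its own range in each panel), by group; points are libraries and bars the mean of 3. The ratios of Srf to Elk1 and to Klf4 lie below D1 in P and RBPMS KD1 and above it in MBNL KD, at 0.71 and 0.22.

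The genes that SRF is known to drive were followed as lists. Of 18 contractile SRF targets, 17 fell and 1 rose in P at the adjusted p, all 18 also passing the fold threshold, where 37.6% of all genes were lower and 40.4% higher at the adjusted p and 27.6% passed both. The median log2 fold change was -3.32, beside 0.02 over all genes tested. Actg2, smooth muscle gamma actin, had 878 ± 10.4 CPM in D1 and 0.352 ± 0.10 CPM in P (SD, n = 3), a log2 fold change of -11.28. Acta2, smooth muscle alpha actin, was 109-fold lower, and Kcnmb1, a potassium channel subunit of muscle, was read at most 2 times in any P library, so that it lay at least 107-fold lower, taking 3 counts per library as the limit (at least 53.5-fold with its counts halved, since the counting of mates is not stated). Des, the muscle intermediate filament desmin, was the gene that rose, from 2.53 ± 0.18 to 13.3 ± 0.35 CPM.

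In RBPMS KD1 the same list had 17 lower and 1 higher (Des again), with 6 lower and none higher at both thresholds, where 29.5% of all genes were lower at the adjusted p and 1.62% at both. The median was -0.87, beside 0.004 over all genes. With quantile normalization Acta2 was no longer called, and without D1 replicate 3 Myh11 was called too. The leading fall was that of Mylk, the kinase of the myosin light chain, from 232 ± 9.36 to 74.4 ± 0.42 CPM (log2 fold change -1.64). Cnn1 (calponin 1) and Kcnmb1 followed at -1.47 and -1.22. In MBNL KD 14 were lower and 4 higher, 2 and 1 of them at both thresholds (all genes: 33.7% lower and 33.8% higher, 4.14% and 6.1% at both), and the median was -0.19, beside 0.01 over all genes. There Synpo2, an actin-bundling protein of muscle, fell by 1.88 on the log2 scale and Csrp1, a LIM-domain cofactor, by 1.03, while Des rose by 1.41. With quantile normalization Csrp1 was not called. Between the knockdowns 16 of the 18 were higher in MBNL KD and 2 lower, 4 and 1 of them at both thresholds (all genes: 35.1% higher and 34.5% lower, 5.88% and 6.03% at both), with a median of 0.70, beside 0.01 over all genes.

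The 15 cytoskeletal MRTF-SRF targets were lower for 14 and higher for 0 in P, 9 at both thresholds, with a median log2 fold change of -1.42, where 37.6% of all genes were lower at the adjusted p, 11.2% at both thresholds, and the median was 0.02. With quantile normalization 12 were lower and 2 higher, and Myh9 (nonmuscle myosin heavy chain) changed side. At both thresholds 8 were then called, without Cnn2. Ccn2, a matricellular growth factor, was 8.002-fold lower in P and 2.11-fold higher in MBNL KD, at 1122 ± 41.2 CPM in D1, 141 ± 0.93 in P and 2371 ± 26.1 in MBNL KD (SD, n = 3). Fhl2 fell by 2.90 on the log2 scale in P. In RBPMS KD1 13 were lower and 1 higher, none at both thresholds (all genes: 29.5% lower, 29.5% higher, 4.68% at both), with a median of -0.29 and Pdlim7, a LIM-domain scaffold of actin filaments, as the largest fall at -0.67. In MBNL KD 10 were lower and 4 higher (all genes: 33.7% and 33.8%) with a median of -0.26, and Tln1 (talin 1, which links integrins to actin) fell by 1.02 on the log2 scale. With quantile normalization 9 were lower there, the median was -0.14 and Tln1 was not called.

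Of 9 immediate early genes that ternary complex factors drive with SRF, 5 were higher and 4 lower in P, where 40.4% and 37.6% of all genes were, with a median of 0.45. Junb, a subunit of AP-1, rose from 48.7 ± 2.01 to 110 ± 3.41 CPM and Fos, its usual partner, fell from 8.72 ± 0.70 to 3.48 ± 0.25 CPM (SD, n = 3). In RBPMS KD1 2 were higher and 3 lower (all genes: 29.5% each way) with a median of -0.05, which was -0.0073 without D1 replicate 1, -0.014 without RBPMS KD1 replicate 2 and -0.0053 with quantile normalization. In MBNL KD 5 were higher and 2 lower (all genes: 33.8% and 33.7%) with a median of 0.16, led by Ier2 at 0.65, and the median was 0.099 without D1 replicate 3. None was called at both thresholds in either knockdown, where 4.68% and 10.2% of all genes were.

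The upstream regulators and cofactors of the family, 17 genes in all, had 4 higher and 8 lower in P, 3 higher and 10 lower in RBPMS KD1, and 2 higher and 11 lower in MBNL KD, with medians of -0.07, -0.15 and -0.24. Of all genes, 77.9%, 59.1% and 67.5% passed the adjusted p in these comparisons. The shares lower were 37.6%, 29.5% and 33.7%, and those higher 40.4%, 29.5% and 33.8%. The list was not sorted into activators and repressors, so its counts and medians give no direction of the pathway. The median in P was -0.13 without D1 replicate 1 and -0.05 without D1 replicate 2, and with quantile normalization 4 were higher and 10 lower in MBNL KD. The formin Diaph1, which promotes actin polymerisation, was at 105 ± 1.28 CPM in D1, 112 ± 2.25 in P, 63.4 ± 2.21 in RBPMS KD1 and 29.1 ± 1.33 in MBNL KD (SD, n = 3). Both knockdowns were thus below every D1 library, at log2 fold changes of -0.72 and -1.85. Mical2, an enzyme that oxidises actin, fell by 0.97 and 1.07 on the log2 scale in RBPMS KD1 and MBNL KD (not called in the latter with quantile normalization), and Hopx, a homeodomain protein that binds SRF, by 0.73 and 1.61. The transcription factor gene Gata6 fell by 1.17 in P. Abra, an activator of the MRTFs, had only 0 to 4 counts per P library and 28 to 44 in D1.

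Among 22 paralogs of the 10 factors, 18 passed the filter on low counts in P against D1, and 8 were higher and 8 lower, 3 and 2 of them at both thresholds (all genes: 77.9% past the adjusted p, 27.6% at both). The median log2 fold change of the 18 was 0.11, and it was 0.035 without P replicate 2 and -0.0015 with quantile normalization. Klf12, a Kruppel-like repressor, was at 4 to 6 counts per library in D1 and at 995 to 1081 in P. Foxo6 was 10.97-fold higher and Klf10, a TGF-beta inducible factor, 2.71-fold higher. In RBPMS KD1 7 of 17 tested were higher and 2 lower (all genes: 59.1% past the adjusted p), among them Elk4, a relative of Elk1, at a log2 fold change of 0.39. In MBNL KD 4 were higher and 9 lower (all genes: 67.5% past the adjusted p), with Klf11 falling from 20.0 ± 0.79 to 6.04 ± 0.087 CPM (SD, n = 3). Counts were made per gene symbol, so reads shared between near-identical relatives of a family may be divided differently than their RNAs.

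**Figure D4:**
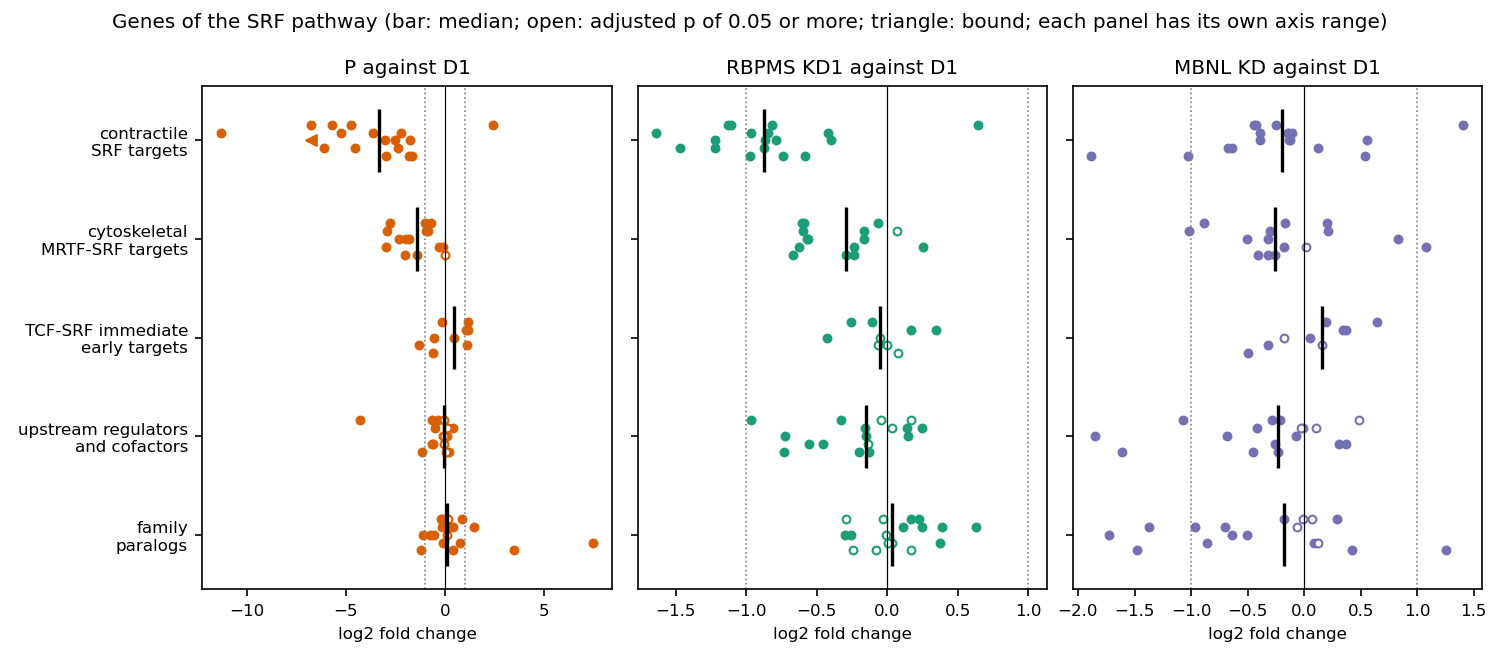
Fitted log2 fold change (x axis, with its own range in each panel) of the genes tested in 5 lists (rows) against D1; bars are medians, open points have an adjusted p of 0.05 or more, dotted lines mark -1 and 1, and the triangle is Kcnmb1 at its bound. The contractile list has medians of -3.32 in P, -0.87 in RBPMS KD1 and -0.19 in MBNL KD.

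Genes with the pattern most like each factor were ranked by Pearson's r of log2 CPM over the 12 libraries, among 12640 genes with a mean of at least 100 counts. The 12 points fall into 4 groups, so that r describes mainly differences between groups. Nearest to Myocd were Tbc1d9 and Tagln, the latter a contractile SRF target, at r = 0.9992 and 0.9991. Polr3d was nearest to Srf (0.9964), Ptger4 to Mrtfa (0.995), Akt2 to Mrtfb (0.987), Adgra2 to Mef2c (0.9932), Mafg to Mef2d (0.9905) and Med14 to Elk1 (0.9818). The nearest genes of Foxo4 (Arl4d, 0.9628), Klf4 (Sys1, 0.971) and Klf5 (Trmt5, 0.9459) had lower values of r.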

How the data were processed

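Poly(A) RNA of 12 PAC1 libraries was sequenced, in 4 groups of 3 that were taken from the sample titles. The methods describe independent biological replicates, though the labels do not tie libraries to cultures. The timing of transfection differs between the labels (second round after 24 h, assessed 48 h later) and the methods. The deposited counts per gene symbol were made by the authors from subsampled reads with STAR 2.7.11b on mRatBN7.2 and featureCounts, without normalisation. Their strand and mate settings are not given in the sources used here. Total counts exceed the read depth that the paper gives after subsampling, so mates may have been counted separately. The deposited normalised signal values (19812 genes, smallest value 35) were made by the authors by noise correction and quantile normalisation, and served as an alternative only. The submitters' notes also name FastQC 0.11.9, MultiQC 1.14, edgeR 3.40.2 and DESeq2 1.38.3.

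From the counts, the 6 libraries of each comparison were fitted separately in R 4.3.3 with edgeR 4.0.16 (filterByExpr, TMM, quasi-likelihood F test, Benjamini-Hochberg adjustment). "Called" means an adjusted p under 0.05 together with an absolute log2 fold change over 1, as in the methods. "Rose", "fell" and the counts past the adjusted p use the former alone. Levels are CPM after TMM scaling and are not comparable between genes, as lengths were not used. Standard errors come from the F statistic. Counts up to 3 were taken as not detected, which covers counting error only. Total counts were 80842635 to 90771289 per library, and libraries of a group differed by more than counting error (chi-square per degree of freedom 3.68 to 12.8). With 3 against 3 libraries an exact permutation test of a single gene cannot go below p = 0.1, so none was used.

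DESeq2 1.42.0 and limma 3.58.1 gave alternatives, beside DESeq2's size factors, quantile normalisation, no filter, halved counts, 1 fit of all 12 libraries, the replicate block and leaving out each library. The pathway lists were recounted under some of these, and the Kcnmb1 bound with halved counts, after the data had been seen. The 10 factors and all gene lists were chosen with earlier results of these data known. Beside the factors, the text names up to 3 genes per list and comparison with D1, those of the largest log2 fold change past the adjusted p. Des in P and in RBPMS KD1, Myh9, Cnn2 in P and, in RBPMS KD1, Acta2 and Myh11 were named outside that rule after their values had been seen. Of the 3 most alike genes of each factor, the first or the first 2 are named. The procedure was checked on simulated data. Promoters are those of RefSeq GRCr8, whose coordinates are not of the build of the counts, and Myocd and Mef2c have no entry. Python 3.11.15 was used for sequences and figures. Splicing and isoforms were not analysed here.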

Additional observations from a re-analysis of the deposited data

How the results depend on the processing

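The number of factors called at both thresholds was 3 in P and 0 in every other comparison under each alternative, and without each library in turn. The number past the adjusted p was 8 to 9 in P, 8 in RBPMS KD1, 7 to 8 in MBNL KD and 8 to 9 between the knockdowns when each library was left out. Over all genes, leaving out a library gave 4757 to 4831 calls in P, 739 to 783 in RBPMS KD1, 1657 to 1728 in MBNL KD and 1945 to 2002 between the knockdowns. Limma on the authors' normalised values gave 209, 784 and 1050 calls in the last 3 comparisons, against 745, 1643 and 1920. With quantile normalization 45.6% of the calls in P and 54.0% of those in RBPMS KD1 were higher, against 59.4% and 65.4%. Of the values for single factors under the alternatives, 502 kept their direction and side of the adjusted p. Another 9 kept their direction but no longer passed the adjusted p, 3 kept their direction and newly passed it, and 4 changed sign. The changes of sign were Klf4 in P without D1 replicate 2 (-0.0016, with a range of -0.0016 to 0.082 over all libraries left out), Elk1 in RBPMS KD1 without RBPMS KD1 replicate 1 (0.014, range -0.10 to 0.014), and Klf4 in MBNL KD with quantile normalization (0.0018) and with limma on the normalised values (0.0013). These values of Klf4 in MBNL KD also no longer passed the adjusted p. The cause of the shifts was not tested.

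Same-numbered libraries are not described as paired, and their deviations from the group means correlated at -0.06 to 0.061, so the numbers mark no pairing. A replicate block gave 4593, 730, 1634 and 1915 calls over all genes in P, RBPMS KD1, MBNL KD and between the knockdowns. Under the block 3, 0, 0 and 0 factors were called and 9, 8, 8 and 8 passed the adjusted p. Depth limits Klf5 alone among the 10 factors.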
